A study of Mus musculus with 8 samples.

Results

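The genes described here build the primary cilium and the motile cilium. They were taken from the platform's gene symbols: a symbol that begins with Bbs, Ift, Dnah, Dnai, Nphp or Tctn followed by a digit, or that equals Mks1, Cep290, Tmem67 or Foxj1. The rule found 39 of the 19505 genes with a symbol, each with 1 row in the value table. Of these, 29 belong to the primary cilium (Bbs, Ift, Nphp and Tctn genes, Mks1, Cep290 and Tmem67), and 10 belong to the motile cilium. All 10 motile genes are axonemal dynein heavy chains (Dnah). Foxj1 is not analysed here. Dnai1 and Dnai2 carry the older symbols Dnaic1 and Dnaic2 on this platform, which the rule does not match, and their values are given with the other genes of the axoneme.

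A primary cilium is a single, usually immotile projection that most neurons and astrocytes carry, and it holds receptors such as Smoothened and several G protein-coupled receptors. Intraflagellar transport (IFT) moves cargo along it: IFT-B complexes carry cargo towards the tip, IFT-A complexes carry it back, the BBSome helps receptors leave, and the transition zone at its base acts as a gate. Motile cilia are driven by dynein arms on the axoneme, and in the brain they belong mainly to ependymal cells, which line the ventricles next to the hippocampus.

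The hippocampus of male mice was profiled on whole-transcript arrays, 8 in all. Dams had been dosed orally from postnatal day 1 to 4 with vehicle or with clothianidin (CLO), a neonicotinoid insecticide, at 65 mg/kg/day. Offspring were taken at 3 or at 10 weeks of age, so that there were 4 groups of 2 arrays: vehicle at 3 weeks, clothianidin at 3 weeks, vehicle at 10 weeks and clothianidin at 10 weeks. The labels name no strain. Nothing in the labels says that the arrays hold separate animals or litters, and the p-values therefore measure only how far these samples spread, and that spread may be technical.

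All levels are log2 intensities, and a difference of 1 is a doubling. Array medians lay between 5.73 and 5.86 and lower quartiles between 3.85 and 4.13. Of 14 hippocampal neuron markers, 13 were measured; their mean level was 9.28 in vehicle replicate 1 at 3 weeks and 10.01 to 10.64 in the other arrays. Markers of a neighbouring tissue differed between arrays of the same group. The mean of 16 choroid plexus markers was 8.94 in vehicle replicate 2 (3 weeks), 8.40 in clothianidin replicate 1 (3 weeks) and 8.72 in clothianidin replicate 1 (10 weeks), against 4.98 to 5.50 in the other 5. These 3 arrays are those with Ttr, the main secreted product of that epithelium, above 18. The mean of 10 ependymal markers (Foxj1 is not among them) lay between 4.53 and 4.92 in every array. Oligodendrocyte markers moved with age: the mean of 5 was 13.08 to 14.32 at 3 weeks and 11.86 to 12.30 at 10 weeks, and all 5 fell past the threshold. Among them Mag fell by 2.17 on the log2 scale (limma, Benjamini-Hochberg adjusted p = 0.00257).

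The 3 arrays with high Ttr were the 3 highest in 14 of the 16 choroid plexus markers. These markers include Ttr itself, which set the arrays apart. The same arrays were the 3 highest in 1.62% of all rows and in 0 of the 39 cilium genes. With so low a share over all rows, 0 of 39 does not set the cilium genes apart. The median level of the 10 motile genes was 4.26, 3.98 and 4.40 in those 3 arrays and 3.76 to 4.14 in the other 5, so that 2 of the 3 were above all others. The median of the 29 primary genes ran from 7.30 to 7.38 in the 4 arrays at 3 weeks and from 7.61 to 7.81 in the 4 arrays at 10 weeks. Related genes outside the rule included some with the 3 high-Ttr arrays highest. They were 4 of 48 further genes of the motile axoneme (8.33%: Dnaaf3, Dnajb13, Cfap126 and Tekt1). Of the further transport, BBSome and motor genes of the primary cilium they were 2 of 22 (9.09%: Hspb11 and Dync2li1). Cfap126, a protein of the axoneme and basal body, read 6.77, 7.19 and 6.80 in these 3 arrays and 4.71 to 6.07 elsewhere.

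**Figure D1:**
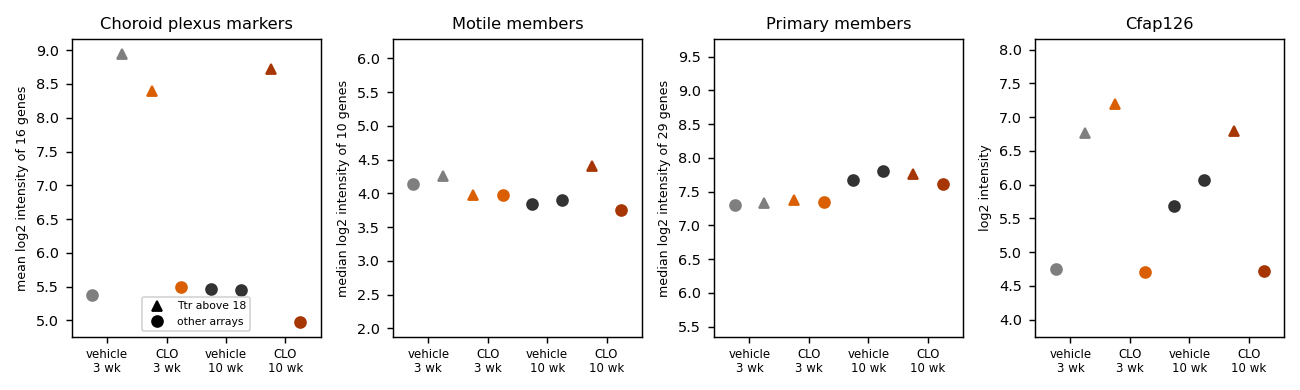
Level in each array of choroid plexus markers (mean log2 intensity of 16 genes), motile cilium genes (median of 10), primary cilium genes (median of 29) and Cfap126; triangles are the 3 arrays with Ttr above 18, circles the other 5, and the 4 panels span log2 ranges of their own. The triangles stand apart at 8.40 to 8.94 for the choroid plexus and at 6.77 to 7.19 for Cfap126, and lie among the circles for the primary genes; for the motile genes 2 of the 3, at 4.26 and 4.40, are above the circles.

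Most primary genes kept clear of the dim end of the arrays, and most motile genes did not. Of the 29 primary genes, 25 were at or above the lower quartile of every array. The other 4 are Bbs12, below it in 6 of 8 arrays, Bbs10 in 3, and Bbs5 and Mks1 in 1 each. Of the 10 dynein genes, Dnah1 and Dnah2 were at or above the lower quartile in every array. Dnah10 and Dnah17 were below it in all 8, Dnah8 and Dnah9 in 7, Dnah11 in 5, Dnah7a in 2, and Dnah5 and Dnah6 in 1. A signal above background was not shown for such values.

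**Figure D2:**
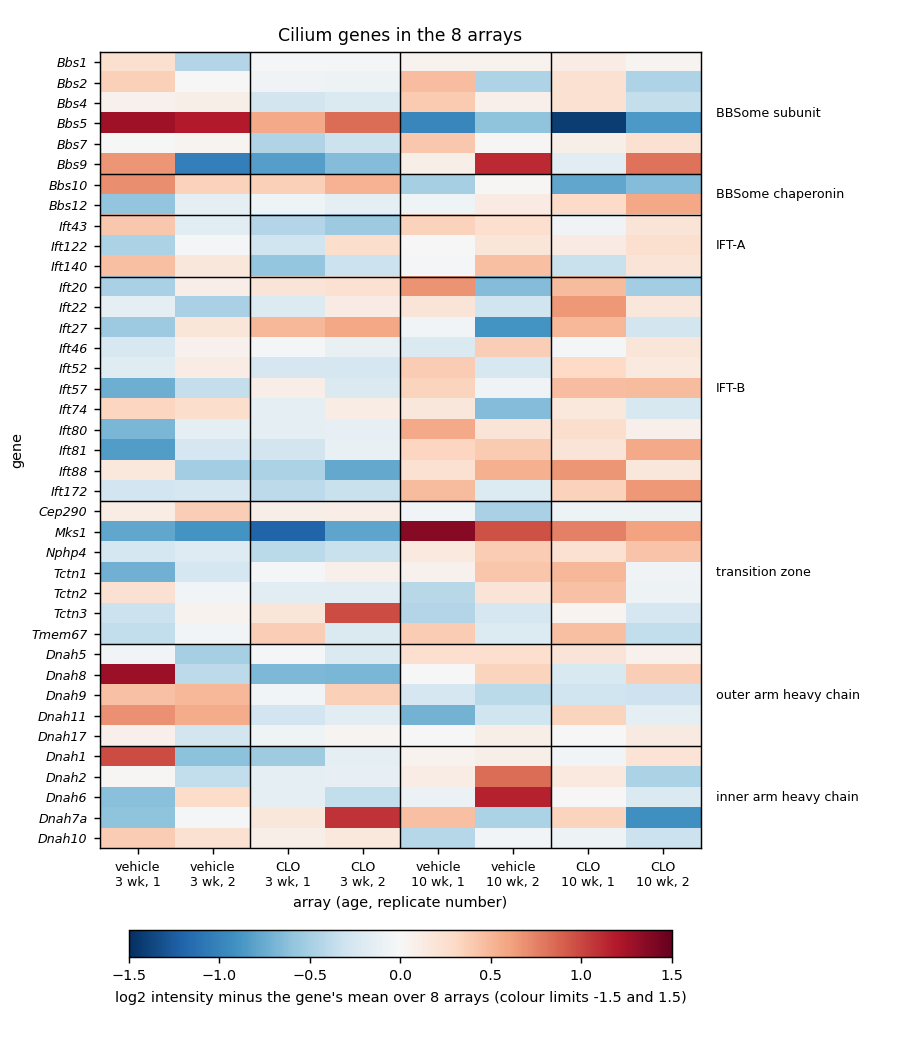
Log2 intensity of each of the 39 genes in each of the 8 arrays minus that gene's mean over the arrays, on a colour scale with limits at -1.5 and 1.5; rows are grouped by the role of the protein and columns by exposure and age. Bbs5 (high at 3 weeks) and Mks1 (high at 10 weeks) divide by age, while single arrays stand out in Dnah8 (vehicle replicate 1 at 3 weeks, 4.42), Dnah6 (vehicle replicate 2 at 10 weeks, 5.66) and Dnah7a (clothianidin replicate 2 at 3 weeks, 5.70).

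RFX factors, which bind the X-box motif, are known regulators of ciliary genes, and FOXJ1, a forkhead factor, of motile ones. RefSeq promoters of the GRCm38.p6 build, 250 bases before to 50 after the start, were given for 35 of the 39 genes (not for Ift122, Ift80, Ift81 and Tmem67). The letters GTTGCC, a side of the X-box, occurred on either strand in 15 of the 35 (42.9%), against 14.1% of the 27025 genes of that table and 14.4% of its protein-coding genes. They were found in 13 of 25 primary genes (52.0%) and in 2 of 10 motile genes. A whole RFX X-box, with up to 3 bases between its sides, was matched in 5 genes, Bbs1, Ift57, Tctn1, Tctn2 and Tctn3 (14.3% of 35, against 1.75% of the table); such a match can contain GTTGCC. The forkhead letters GTAAACA were matched in 1 gene, Dnah17 (2.86%, against 4.05%). A match is a description of the sequence and was not tested as a binding site.

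The sequences below belong to matched primary genes, those with the largest age differences and the largest differences with exposure at 3 weeks, and to a pair of the Tctn genes with an X-box. All are written 5′ to 3′ on the gene's own strand, and capitals mark the match (GTTGCC, or GGCAAC where the match is on the other strand). For Mks1 the 250 bases before the start are shown, chr11:87852965-87853214 on the plus strand, with GTTGCC at -24 to -19 from the start.
Mks1: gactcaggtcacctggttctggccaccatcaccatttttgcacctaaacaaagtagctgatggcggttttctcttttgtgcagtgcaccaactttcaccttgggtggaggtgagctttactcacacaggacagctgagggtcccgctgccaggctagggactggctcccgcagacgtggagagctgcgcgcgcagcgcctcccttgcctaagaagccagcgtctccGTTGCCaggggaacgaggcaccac
The remaining windows hold 30 bases each. They are from chr2:69647191-69647220 (Bbs5, plus strand, match at 43 to 48 after the start), chr14:57424080-57424109 (Ift88, plus), chr17:25015965-25015994 (Ift140, plus) and chr15:78174073-78174102 (Ift27, minus).
Bbs5: gatgtcgtgacaaagccggcgcGTTGCCtt
Ift88: ggagtcgcgcctGGCAACggctgggcgtcc
Ift140: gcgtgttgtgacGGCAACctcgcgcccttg
Ift27: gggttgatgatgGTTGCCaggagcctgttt
Capitals mark the whole X-box in chr5:122264411-122264440 (Tctn1, minus) and chr19:40612351-40612380 (Tctn3, minus).
Tctn1: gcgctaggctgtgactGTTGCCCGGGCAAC
Tctn3: ctcccagcgGTTGCCAGGTAACgggaacca

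Age separated a few primary cilium genes clearly. Between 3 and 10 weeks, over both exposures (4 arrays against 4), Mks1, Ift81 and Ift88 rose and Bbs5 and Bbs10 fell, which is 5 of 29 primary genes past an adjusted p of 0.05 (limma with Benjamini-Hochberg adjustment over all 22206 rows). None of the 10 dynein genes passed. Of all rows, 11.2% passed (6.37% higher and 4.84% lower), against 17.2% of the primary genes. Without Bbs5 and Mks1 the primary share was 11.1%. With quantile normalisation 3 of 29 primary genes passed, against 9.23% of rows, and with centring 3 of 29, against 10.2%. In rows at or above the median level 2 of 25 passed, against 10.3% of those rows. That filter leaves out Bbs5, Mks1, Bbs10 and Bbs12 by their level. The lean of the primary group was upward, with 21 of 29 higher at 10 weeks and a median difference of 0.27, against 0.07 over all rows and 0.17 over the rows at or above the median level. After quantile normalisation 17 of 29 were higher, and the median was 0.09 against 0 over all rows.

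BBSome genes held the largest fall. Bbs5, a lipid-binding BBSome subunit, read 6.45 and 6.36 in the vehicle arrays at 3 weeks, 5.74 and 6.02 in the clothianidin arrays at 3 weeks, 4.20 and 4.57 in the vehicle arrays at 10 weeks, and 3.75 and 4.32 in the clothianidin arrays at 10 weeks. Every array at 3 weeks was above every array at 10 weeks. The means were 6.14 ± 0.33 and 4.21 ± 0.34 (SD, n = 4), and Bbs5 fell by 1.93 ± 0.21 (SE), a 3.82-fold difference (limma adjusted p = 0.00175). The BBSome subunit Bbs9 leaned the other way, 12.07 ± 0.76 against 12.99 ± 0.61 (SD, n = 4), with overlapping ages and a difference of 0.93 ± 0.37 (SE) that did not pass (limma adjusted p = 0.125). Without vehicle replicate 1 at 3 weeks, which read 13.19, that difference was 1.35 and passed (limma adjusted p = 0.0414). The other 4 subunits differed by -0.12 (Bbs2) to 0.37 (Bbs7) between the ages; Bbs1 and Bbs4 differed by 0.13 and 0.17.

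The chaperonin-like proteins that assemble the BBSome are represented by Bbs10 and Bbs12. Bbs10 read 4.98 and 4.63 with vehicle and 4.64 and 4.81 with clothianidin at 3 weeks, and 3.79 and 4.30 with vehicle and 3.51 and 3.64 with clothianidin at 10 weeks. The ages did not overlap, but the values of 3.79, 3.51 and 3.64 at 10 weeks lay below the lower quartile of their array. A signal above background was not shown for them. Bbs10 fell by 0.95 ± 0.20 (SE, limma adjusted p = 0.0169). Leaving out either clothianidin array at 3 weeks, vehicle replicate 1 at 10 weeks or either clothianidin array at 10 weeks moved its adjusted p to between 0.0508 and 0.0621. Bbs12 went from 3.37 ± 0.24 to 3.84 ± 0.27 (SD, n = 4), a difference of 0.47 that did not pass (limma adjusted p = 0.141).

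Transition zone genes held the largest rise. Mks1, a subunit of the complex mutated in Meckel syndrome, read 4.21 and 4.09 with vehicle and 3.79 and 4.20 with clothianidin at 3 weeks, and 6.35 and 5.94 with vehicle and 5.74 and 5.59 with clothianidin at 10 weeks. The ages lay more than 1 log2 unit apart, with no overlap. Its mean went from 4.07 ± 0.20 to 5.90 ± 0.33 (SD, n = 4), a rise of 1.83 ± 0.20 (SE) or 3.56-fold (limma adjusted p = 0.00175). Nphp4, a scaffold of the zone, read 7.13 to 7.33 at 3 weeks and 7.68 to 7.96 at 10 weeks without overlap; its difference of 0.60 ± 0.18 (SE) missed the threshold (limma adjusted p = 0.058). Cep290, which links the membrane of the zone to its microtubules, had every array at 3 weeks (6.61 to 6.90) above every array at 10 weeks (6.04 to 6.49), with a difference of -0.34 (limma adjusted p = 0.271). The Tctn genes had no common direction, at 0.46 for Tctn1, 0.08 for Tctn2 and -0.45 for Tctn3, and Tmem67, a receptor-like membrane protein of the zone, differed by 0.13.

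Intraflagellar transport genes were mostly higher at 10 weeks, also after quantile normalisation (3 of 3 IFT-A and 7 of 11 IFT-B genes). All 3 IFT-A genes (Ift43, Ift122, Ift140) had positive differences, of 0.14 to 0.37, and 0 of the 3 passed. Among 11 IFT-B genes 8 were higher and 3 lower, with a median of 0.36, and 2 passed. Ift81, which with Ift74 binds tubulin cargo, read 8.53 and 9.11 with vehicle and 9.09 and 9.26 with clothianidin at 3 weeks, and 9.69 and 9.76 with vehicle and 9.56 and 9.93 with clothianidin at 10 weeks. The ages did not overlap, vehicle replicate 1 at 3 weeks was lowest, and the rise was 0.74 ± 0.21 (SE; limma adjusted p = 0.0432). Its partner Ift74 did not follow, at -0.29 ± 0.23 (limma adjusted p = 0.431).

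Ift88, a core IFT-B subunit without which cilia fail to form, read 7.60 and 6.92 with vehicle and 6.97 and 6.68 with clothianidin at 3 weeks. At 10 weeks it read 7.67 and 7.98 with vehicle and 8.11 and 7.61 with clothianidin. The highest array at 3 weeks was just below the lowest at 10 weeks, and the rise was 0.80 ± 0.23 (SE; limma adjusted p = 0.0444). Ift57, Ift172 and Ift80 had differences of 0.61, 0.63 and 0.54 and adjusted p-values of 0.0726, 0.0728 and 0.105 (limma). Both IFT-B calls were narrow. Ift81 passed only when vehicle replicate 2 at 3 weeks was left out and lay between 0.0781 and 0.142 without any other single array; Ift88 passed only without vehicle replicate 1 at 3 weeks and otherwise lay between 0.0693 and 0.148. Both also lost the call with quantile normalisation (limma adjusted p = 0.108 for Ift81 and 0.106 for Ift88), with arrays centred on their median (0.0607 and 0.0613) and with Ttr as a covariate (0.0585 and 0.0576).

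**Figure D3:**
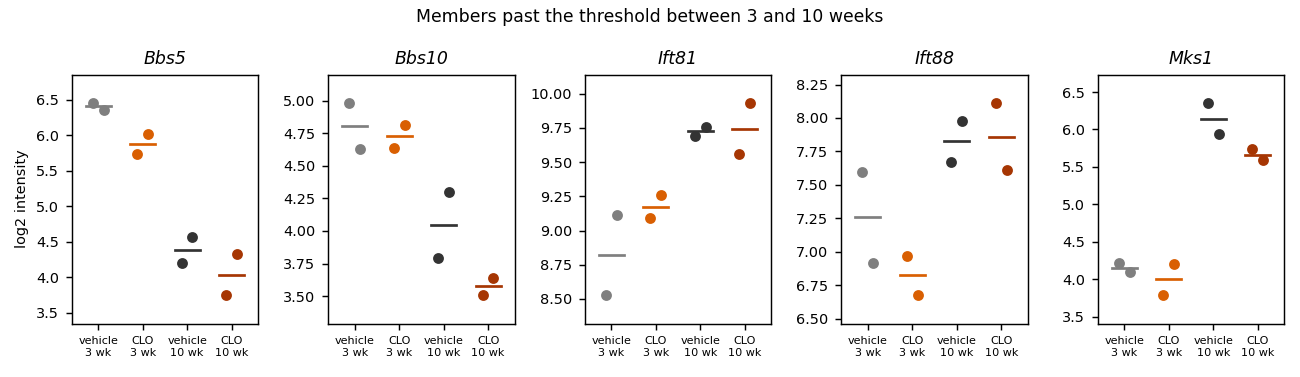
Log2 intensity of the 5 genes that passed between 3 and 10 weeks, by group; points are single arrays (2 per group), horizontal lines are group means, and each panel has its own log2 range. In Bbs5 and Mks1 all arrays of an age lie together, at 5.74 to 6.45 against 3.75 to 4.57 and at 3.79 to 4.21 against 5.59 to 6.35.

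Bbs5 and Mks1 passed whichever single array was left out (limma adjusted p from 0.00584 to 0.0154 and from 0.00583 to 0.0153). The count of primary genes past the threshold ran from 2 to 5 over the 8 omissions, and that over all rows from 628 to 2550. It was 2 of 29 without either clothianidin array at 3 weeks, without vehicle replicate 1 at 10 weeks, or without either clothianidin array at 10 weeks, and 3 without vehicle replicate 2 at 10 weeks. Without the 3 arrays with high Ttr, 0 of the 22206 rows passed, with a difference of -1.88 for Bbs5 and of 1.66 for Mks1 (limma adjusted p = 0.133 for each). Marker lists of several cell types moved over the same contrast. Oligodendrocyte markers fell, as given above. Choroid plexus markers were lower at 10 weeks in 15 of 16, with a median of -0.76 and 1 past the threshold. The 3 arrays with high Ttr are not evenly split between the ages. Hippocampal neuron markers were higher at 10 weeks in 11 of 13, with a median of 0.47 and 1 past the threshold (9 of 13 and 0.27 after quantile normalisation). Striatum markers were higher in 4 of 4, with a median of 0.59 and 2 past the threshold, and neuroblast markers were lower in 4 of 4, with a median of -0.36 and 1 past it (3 of 4 after quantile normalisation). The part of these cell types in the differences of the cilium genes was not tested. In RNA from whole tissue, fewer cells of a type and less RNA per cell cannot be told apart.

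Matched and unmatched promoters are given side by side, in small numbers. Among the 13 primary genes whose promoter holds GTTGCC, 3 passed between the ages (Bbs5, Ift88 and Mks1) and the median difference was 0.37. Among the 12 without it, 1 passed (Bbs10) and the median was 0.16; over all rows 11.2% passed. In the motile genes the order of the medians was the other way, at -0.38 for the 2 with GTTGCC (Dnah7a and Dnah10) and 0.20 for the 8 without, and none of the 10 passed. Bbs5 and Mks1, both matched, went in opposite directions.

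Dynein heavy chain genes gave no call between the ages (0 of 10 by limma). At an unadjusted limma p under 0.05 there were 2 of 10, Dnah9 and Dnah10, against 6553 of 22206 rows. The 10 differences split 6 higher and 4 lower, with a median of 0.13 that became -0.17 without vehicle replicate 2 at 3 weeks. Dnah9, a heavy chain of the distal outer arm, read 3.95 and 4.01 with vehicle and 3.47 and 3.87 with clothianidin at 3 weeks, against 3.26 and 3.10 with vehicle and 3.21 and 3.20 with clothianidin at 10 weeks. The ages did not overlap, but 7 of the 8 values were below the lower quartile of their array, and the difference of -0.63 ± 0.19 (SE) did not pass (limma adjusted p = 0.0528). With each array centred on its median it was -0.70 and passed (limma adjusted p = 0.0384). The largest positive values were 0.42 for Dnah6, 0.38 for Dnah5 and 0.31 for Dnah2, and the other negative ones were -0.44 for Dnah10, -0.40 for Dnah11 and -0.31 for Dnah7a. Dnah7a has near-identical copies (Dnah7b and Dnah7c), and its probes may read them together.

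Over all 39 genes, the 4 arrays of an age did not overlap with those of the other in 12, 7 higher and 5 lower at 10 weeks, or 30.8%; over all rows this was 19.7%.

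Related genes outside the rule were compared in the same way, and their shares past the threshold stand against the 11.2% of all rows. Their directions stand against 12434 of 22206 rows higher at 10 weeks. The median was 0.07 over all rows and 0.17 over the rows at or above the median level. Of 22 other transport, BBSome and motor genes, 15 were higher and 7 lower, with a median of 0.13, and 1 passed (4.55%). This was Bbip1, a small BBSome subunit, which fell by 0.69 ± 0.20 (SE; limma adjusted p = 0.046). Of 26 other genes of the transition zone and ciliary base, 21 were higher, with a median of 0.18, and 1 passed (3.85%). Cep97, which with CP110 caps the mother centriole and holds back cilium formation, rose by 1.06 ± 0.19 (SE; limma adjusted p = 0.00885), from 7.65 to 7.80 at 3 weeks to 8.66 to 9.10 at 10 weeks.

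Of the ciliary receptors and hedgehog genes, 13 of 16 were higher, with a median of 0.44, and 4 rose past the threshold (25%, against 6.37% of all rows higher). Gpr161, a ciliary receptor that holds hedgehog signalling down, read 7.84 to 8.49 at 3 weeks and 9.28 to 9.41 at 10 weeks, a rise of 1.10 ± 0.19 (SE; limma adjusted p = 0.00877). Sufu, a cytoplasmic inhibitor of GLI factors, rose by 0.98, Ptch1, the hedgehog receptor, by 0.93, and Smo, the transducer it inhibits, by 0.68 (limma adjusted p = 0.0184, 0.033 and 0.0386). Cep97 and Gpr161 passed in all 8 single-array omissions. Sufu passed in 2, Ptch1 in 3, and Smo and Bbip1 in 1, and all 4 of these lost their call without clothianidin replicate 1 at 3 weeks, among others (limma adjusted p up to 0.0668, 0.119, 0.117 and 0.135).

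Of 48 other genes of the motile axoneme and its assembly, 24 were higher and 24 lower, with a median of 0.01, and 5 passed (10.4%, about the share of all rows, 11.2%). Kif6, a kinesin of ependymal cilia, rose by 1.10 and Wdr78, an axonemal dynein intermediate chain, by 0.71; Dynlrb2, a dynein light chain, fell by 0.98, Tekt4, a tektin, by 0.84 and Dnaaf5, a dynein assembly factor, by 0.72 (limma adjusted p from 0.0156 to 0.0479). These calls were lost in 2 (Kif6), 4 (Dynlrb2) or 7 (the others) of the 8 omissions, with clothianidin replicate 1 at 3 weeks among them each time (limma adjusted p up to 0.0646 for Kif6 and 0.157 for Tekt4). Dnaic1 and Dnaic2, the outer arm intermediate chains, had differences of 0.51 and -0.32 (limma adjusted p = 0.209 and 0.361). Of 11 regulators of multiciliated cell fate 2 passed (18.2%, against 11.2% of all rows). Rfx1 rose by 0.89 and Myb by 0.84 (limma adjusted p = 0.0209 and 0.0388), calls that were kept in 4 and 1 of the 8 omissions and lost without clothianidin replicate 1 at 3 weeks (limma adjusted p up to 0.0846 and 0.125). Rfx3, an RFX factor of ciliated cells, differed by -0.10.

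Clothianidin at 3 weeks gave no cilium gene past the threshold. In limma with Benjamini-Hochberg adjustment 0 of 39 genes and 0 of 22206 rows passed (0%), and the lowest adjusted p was 0.846 among the genes and 0.626 over all rows. At an unadjusted p under 0.05 there were 4 genes (Ift140, Tctn3, Dnah8 and Dnah11) and 1310 rows; all 4 also differed by at least 1.5-fold (10.3% of the genes, against 5.83% of all rows). The median difference, clothianidin minus vehicle, was -0.10 for the primary and -0.13 for the motile genes, with 0 over all rows.

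Over all 39 genes, 17 were higher and 22 lower with clothianidin. Direction was more uneven among the genes with fully separate groups, a count that was not repeated with single arrays left out. Clothianidin and vehicle were fully apart in 22 of the 39 genes (56.4%), against 34.4% of all rows, and 16 of the 22 were lower in clothianidin and 6 higher. Over all rows the same count was 3810 lower and 3819 higher. With 2 arrays a group, such a separation can rest on small differences: the median absolute difference was 0.28 over the genes and 0.24 over all rows. BBSome subunits were lower in 5 of 6, with a median of -0.37 (6 of 6 after quantile normalisation), and IFT-B genes were higher in 7 of 11, with a median of 0.28 (6 of 11 after quantile normalisation). Without vehicle replicate 1 at 3 weeks these were 4 of 6 lower, with a median of -0.20, and 6 of 11 higher, with a median of 0.01.

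Markers of other cell types also differed between the exposure groups, none past the threshold. Hippocampal neuron markers were higher with clothianidin in 12 of 13 at 3 weeks (median 0.41) and in 12 of 13 at 10 weeks (median 0.44; 10 of 13 after quantile normalisation). At 3 weeks that lean rested mainly on vehicle replicate 1, without which 7 of 13 were higher and the median was 0.05; at 10 weeks it was 8 of 13 and 0.15 without clothianidin replicate 1. Meninges markers were lower with clothianidin in 5 of 7 at 3 weeks (median -0.32) and in 6 of 7 at 10 weeks (median -0.38, and -1.25 without clothianidin replicate 1). The value at 3 weeks turned to 0.16, with 5 of 7 higher, without clothianidin replicate 1 at that age. At 10 weeks choroid plexus markers were higher with clothianidin in 15 of 16 (median 0.97), and lower in 13 of 16 (median -0.36) without clothianidin replicate 1, an array with high Ttr. Oligodendrocyte markers were higher in 5 of 5 at that age (median 0.35; 4 of 5 after quantile normalisation). The part of these cell types in the exposure differences of the cilium genes was not tested.

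The lowest values among the primary genes were in IFT-A. Ift140, the scaffold of IFT-A, read 7.15 and 6.86 with vehicle and 6.11 and 6.37 with clothianidin, a difference of -0.76 ± 0.30 (SE; limma adjusted p = 0.846). Ift43, another IFT-A subunit, read 6.19 and 5.63 with vehicle and 5.35 and 5.24 with clothianidin, a difference of -0.62 ± 0.28 (SE; limma adjusted p = 0.849). Both had the clothianidin arrays below the vehicle arrays, and neither passed; the remaining IFT-A gene, Ift122, differed by 0.24. Bbs9 differed by -0.55, which became 0.29 without vehicle replicate 1 at 3 weeks.

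The largest positive values were in Ift27, Tctn3 and Tctn1. Ift27, a small GTPase of IFT-B that helps the BBSome leave the cilium, read 5.42 and 6.15 with vehicle and 6.47 and 6.55 with clothianidin, a difference of 0.72 ± 0.38 (SE; limma adjusted p = 0.853). Tctn3 read 6.95 and 7.32 with vehicle and 7.45 and 8.25 with clothianidin, a difference of 0.71 ± 0.32 (SE; limma adjusted p = 0.846) that was 0.31 without clothianidin replicate 2. Tctn1 differed by 0.52 ± 0.30. Among genes named for reference, the differences were -0.44 for Ift88, -0.32 for Bbs4, -0.16 for Mks1, -0.15 for Cep290, 0.06 for Bbs1 and 0.28 for Tmem67.

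Vehicle replicate 1 at 3 weeks stood out over all rows, not only in dynein genes. It was the highest of 8 arrays in 4 of 10 dynein genes, 6 of 29 primary genes and 17.1% of all rows. The same array was the lowest in 1 dynein gene, 7 primary genes and 4598 of 22206 rows. Dnah8, an outer arm heavy chain best known from sperm, read 4.42 and 2.74 with vehicle and 2.46 and 2.45 with clothianidin, a difference of -1.12 ± 0.45 (SE; limma adjusted p = 0.846) that became -0.29 without that array. Dnah1, an inner arm heavy chain, read 6.48 and 4.88 with vehicle and 4.97 and 5.36 with clothianidin, a difference of -0.51 that became 0.29 without it. Both values rest mainly on 1 array.

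Dnah11, a heavy chain of the proximal outer arm, did not depend on it. It read 4.65 and 4.52 with vehicle and 3.68 and 3.81 with clothianidin, a difference of -0.84 ± 0.28 (SE; limma adjusted p = 0.846) that ran from -0.91 to -0.77 over the omissions. Dnah7a had the largest positive value, 0.94 ± 0.47 (SE), from 4.01 and 4.58 with vehicle and 4.78 and 5.70 with clothianidin (limma adjusted p = 0.853). Dnah5 and Dnah17 differed by 0.15 and 0.09.

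At 10 weeks exposure again gave no call among the cilium genes. None of the 39 genes and none of the 22206 rows passed (0%; limma, lowest adjusted p 0.997), and 0 genes and 820 rows had an unadjusted p under 0.05. With a difference of at least 1.5-fold as well, 3.67% of all rows were left and 0 genes. The groups did not overlap in 7 of the 39 genes (17.9%), 3 higher and 4 lower in clothianidin, against 30.7% of all rows. The median difference was 0.02 for the primary genes and -0.04 for the motile genes, with 0.01 over all rows.

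The 2 genes with the largest age differences, Mks1 and Bbs5, were with Bbs10 the 3 largest falls among the primary genes here. None of them passed. The median absolute difference was 0.21 over the 29 primary genes. Mks1 differed by -0.48 ± 0.28 (SE), with 6.35 and 5.94 in vehicle above 5.74 and 5.59 in clothianidin arrays, and Bbs5 by -0.35 ± 0.30, with overlap. Bbs10 differed by -0.47, again with both clothianidin arrays lower, and Bbs12 by 0.40 with both higher. Ift27 was at 0.58 and Ift22 at 0.46, each with overlapping groups. Ift88 differed by 0.03, Bbs1 by 0.02, Bbs4 by -0.30, Cep290 by 0.18, Tctn1 by -0.02 and Tmem67 by -0.04.

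Dnah2 and Dnah6 had the lowest dynein values, each -0.64, and each rested mainly on vehicle replicate 2. Dnah6, an inner arm heavy chain, read 4.41 and 5.66 with vehicle and 4.50 and 4.29 with clothianidin, and its difference was -0.02 without that array; that of Dnah2 was -0.28. Dnah11 read 3.26 and 3.66 with vehicle and 4.30 and 3.83 with clothianidin, a difference of 0.60 ± 0.28 (SE; limma adjusted p = 0.997). The clothianidin arrays were the higher ones in Dnah11 here, and the lower ones at 3 weeks. Dnah7a differed by -0.28, Dnah5 by -0.12, and Dnah10 and Dnah17 by 0.03 each.

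**Figure D4:**
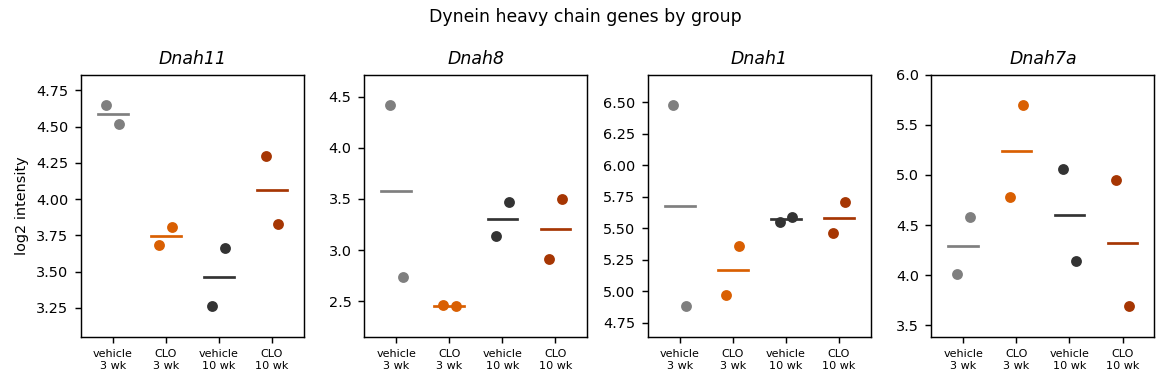
Log2 intensity of Dnah11, Dnah8, Dnah1 and Dnah7a by group; points are single arrays (2 per group), horizontal lines are group means, and each panel has its own log2 range. Dnah11 is higher in vehicle than in clothianidin arrays at 3 weeks (4.52 to 4.65 against 3.68 to 3.81) and lower at 10 weeks, while in Dnah8 and Dnah1 a single vehicle array at 3 weeks (4.42 and 6.48) lies above all others.

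Whether the exposure difference itself changed between the ages was tested as an interaction. No gene and no row passed (0%; limma, lowest adjusted p 0.998), and at an unadjusted p under 0.05 there were 1 gene, Dnah11, and 695 rows (3.13%). The difference at 10 weeks minus that at 3 weeks was 1.44 ± 0.40 (SE) in Dnah11, with a 95% confidence interval of 0.56 to 2.33 and an unadjusted limma p of 0.00402, and it ran from 1.21 to 1.68 over the single-array omissions. It was 1.21 without the 3 arrays with high Ttr. Dnah11 was the only 1 of the 39 genes (2.56%) whose groups were apart in opposite directions at the 2 ages, against 3.83% of all rows, and 5 of its 8 values were below the lower quartile of their array.

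The other dynein interactions were -1.22 ± 0.66 (SE) for Dnah7a, 1.02 ± 0.64 for Dnah8, -0.68 for Dnah2, -0.57 for Dnah6 and 0.53 for Dnah1. Those of Dnah8 and Dnah1 were 0.19 and -0.27 without vehicle replicate 1 at 3 weeks, and that of Dnah6 was 0.06 without vehicle replicate 2 at 10 weeks. Among the primary genes the largest were 0.55 for Tctn2, 0.51 for Ift74 and 0.48 for Ift140, and -0.54 for Tctn1, -0.49 for Ift80 and -0.47 for Tctn3. The 95% interval of each of these 6 included 0.

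Averaged over both ages, the exposure difference set 4 clothianidin against 4 vehicle arrays. It passed in 0 of 39 genes and in 0 rows (0%; limma, lowest adjusted p 0.774); at an unadjusted p under 0.05 there were 2 genes, Ift27 and Ift140, and 1371 rows. Ift27 was 0.65 ± 0.27 (SE) higher in clothianidin, and Ift140 was at -0.52 ± 0.21. At an unadjusted p under 0.05 together with a difference of at least 1.5-fold, Ift27 was the 1 gene left, against 3.13% of all rows. Subunits of the BBSome were lower with clothianidin in 5 of 6 at each age, and their mean differences were -0.44 for Bbs5, -0.42 for Bbs9, -0.31 for Bbs4, -0.23 for Bbs7, -0.18 for Bbs2 and 0.04 for Bbs1. No BBSome gene passed, and 6 genes of a complex that were chosen together carry no test as a group here.

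Ift57 and Ift43 were the 2 of 39 genes whose groups were apart in the same direction at both ages (6.88% of all rows were). Ift57, an IFT-B subunit, read 9.31 and 9.68 with vehicle and 10.14 and 9.82 with clothianidin at 3 weeks, and 10.37 and 9.99 against 10.50 and 10.51 at 10 weeks. Both clothianidin arrays were higher at each age, and the mean difference was 0.41 ± 0.20 (SE; limma adjusted p = 0.774). At each age Ift43 was lower in both clothianidin arrays, and its mean difference was -0.42 ± 0.20 (SE; limma adjusted p = 0.774). Tctn3 was at 0.48. Of the dynein genes, Dnah8 was at -0.61, Dnah6 at -0.36, Dnah2 at -0.30 and Dnah7a at 0.33, and the 95% interval of each included 0.

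**Figure D5:**
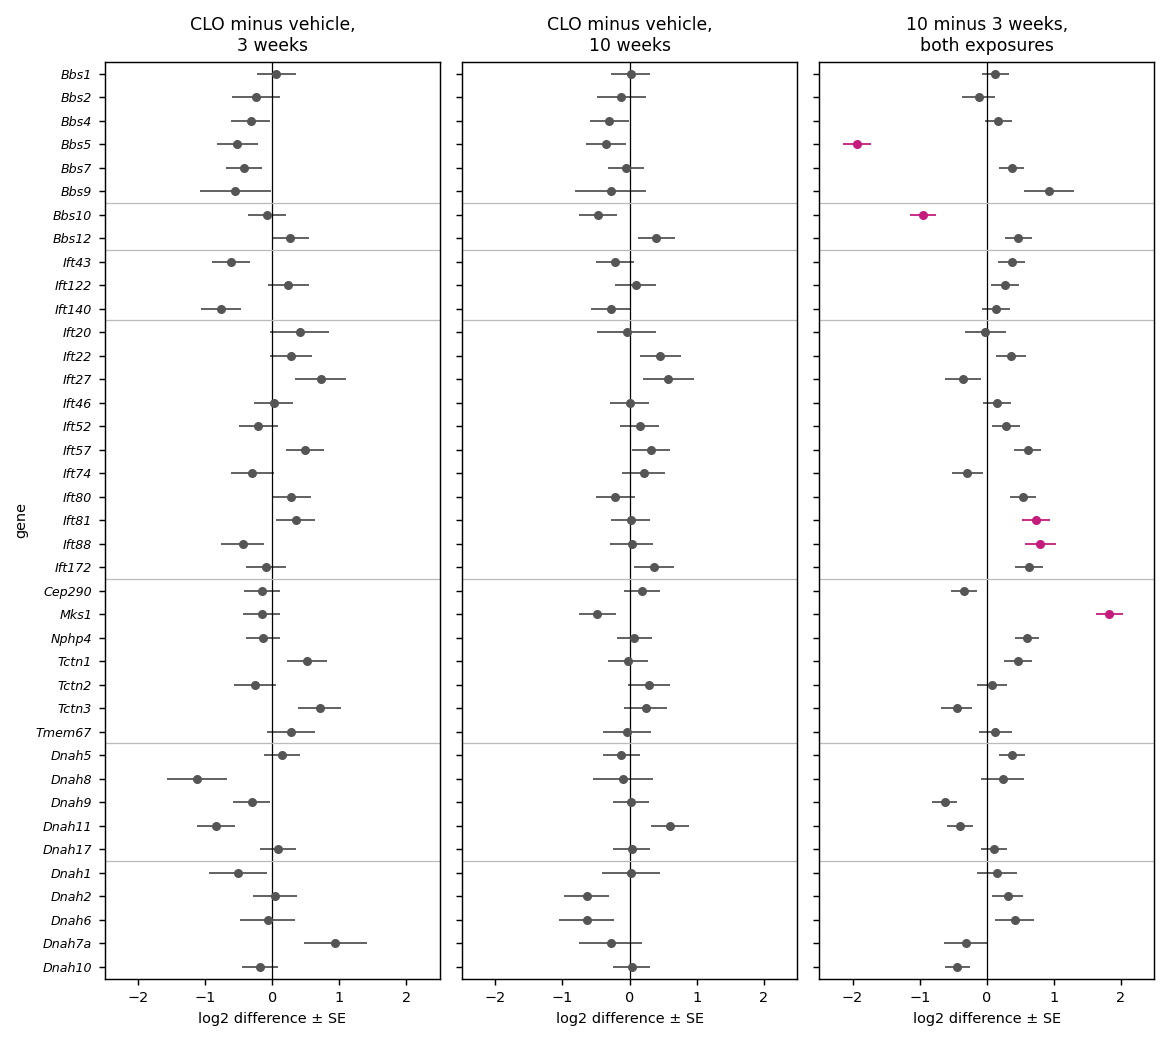
Log2 difference with its standard error for each of the 39 genes in 3 comparisons: clothianidin minus vehicle at 3 weeks, the same at 10 weeks (2 arrays against 2), and 10 minus 3 weeks over both exposures (4 against 4); magenta marks an adjusted p under 0.05, and grey lines separate the roles. The 5 coloured points are all in the age panel, with Bbs5 at -1.93 and Mks1 at 1.83 farthest from 0.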

How the data were processed

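The hippocampal RNA of 8 samples (250 ng each, integrity number above 7.0) was measured on arrays. The authors deposited log2 values, for which the submitters' processing notes name RMA without a version; whether all arrays were normalised together is not stated. All 22206 rows were used with no filter on dim rows. Symbols came from the platform annotation (19572 rows with 1 symbol, 2634 with none), and promoters from RefSeq (GRCm38.p6). The number of arrays, 2 per group, limits the precision.

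All 8 arrays entered 1 linear model (4 group means) in limma 3.58.1 under R 4.3.3 (4 residual degrees of freedom, default prior), with two-sided tests adjusted by Benjamini and Hochberg over all rows at a threshold of 0.05. Contrasts were the exposure difference at 3 and at 10 weeks, their difference and mean, and 10 against 3 weeks. The contrasts share arrays. The fit was tested on simulated data. Figures were drawn with matplotlib 3.10.9.

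The members and lists were chosen with earlier results of these data known. Members were named by their symbol, with all past the threshold and the 3 largest rises and falls of each kind in each contrast, and further genes of a list where they passed; some members beside these are named as values. Alternatives were a trended or a robust prior, array weights, a block for the replicate number, only the arrays compared, rows at or above the median level, quantile normalisation, centring, the mean of all rows of a gene, other thresholds, Ttr as a covariate, no high-Ttr arrays, and leaving out each array.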

Additional observations from a re-analysis of the deposited data

Results flagged for a closer look

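Dnah11 drew attention because its 2 exposure differences ran in opposite directions with no overlap of the groups: -0.84 at 3 weeks and 0.60 at 10 weeks. The difference between them, 1.44, was tested as an interaction and did not pass after adjustment over all rows (limma adjusted p = 0.998). Of all rows, 3.83% had groups apart in opposite directions in this way.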

How the results depend on the processing

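Over 13 alternative settings, 692 of 718 values of single genes kept their direction and their side of the threshold, and 201 of 218 group values counted as unchanged. Over the 8 single-array omissions these were 452 of 488 and 146 of 160. A group count was unchanged if equal or within 1.5-fold. A group median was unchanged if it moved by less than its SD between replicate arrays (0.074 primary, 0.232 motile). The sign of such a median could still turn. Several of the 13 settings could not turn the direction of a gene. These were both priors, the looser thresholds and the array weights, which were equal within each group. The mean of all rows could not either, as each member has 1 row. The totals over the settings are therefore no measure of robustness. The replicate numbers of the labels did not pair the arrays (correlations of same-numbered deviations between groups from -0.27 to 0.14). With the replicate block, 1803 rows passed between the ages and Ift88 did not (limma adjusted p = 0.0538). Between the ages, the count of primary genes past the threshold was 5, and became 2 in rows at or above the median level (25 genes left), 3 with quantile normalisation, with centring and with Ttr as a covariate, 8 at an adjusted p under 0.1, 9 at an unadjusted p under 0.05 and 1.5-fold, and 0 without the 3 high-Ttr arrays, where 0 rows passed with fewer samples. Bbs5, Mks1 and Bbs10 lie below the median level and were therefore not among the 25 genes left. The motile count became 1 (Dnah9) with centring and at both looser thresholds. The primary median was 0.09 with quantile normalisation, and the motile median -0.16 without the high-Ttr arrays. For exposure at 3 weeks, the count at an unadjusted p under 0.05 and 1.5-fold was 2 motile and 2 primary, against 5.83% of all rows. It was 1 motile for the difference (3.13% of rows) and 1 primary for the mean (3.13%). The primary median of the difference was -0.03 without the high-Ttr arrays. Leaving those arrays out also reversed the values of Dnah10 at 10 weeks (-0.09), Dnah17 and Dnah5 at 3 weeks (-0.04 and -0.17) and Dnah5 in the mean (-0.18), none past the threshold. The cause of these changes was not tested, also where a setting has fewer samples or genes.

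Omitting 1 array at a time, with the lone sample of its group assumed to vary like the other groups, gave these ranges. Between the ages they were 2 to 5 primary genes and -0.17 to 0.20 for the motile median. For the difference they were -0.05 to 0.17 (primary median), -0.18 to 0.20 (motile median), -0.27 to 1.33 (Dnah1) and -1.19 to 0.06 (Dnah6). For exposure at 10 weeks they were -0.01 to 0.19 (primary median), -0.07 to 0.01 (motile median), -0.16 to 0.22 (Dnah10), -0.04 to 0.10 (Dnah17) and -0.91 to 0.35 (Dnah7a). For exposure at 3 weeks they were -0.16 to -0.02 (primary median), -0.21 to 0.06 (motile median), -1.40 to 0.29 (Bbs9), -1.32 to 0.29 (Dnah1), -0.09 to 0.27 (Dnah17) and -0.08 to 0.37 (Dnah5). For the mean they were -0.06 to 0.12 (primary median), -0.03 to 0.15 (Dnah17) and -0.10 to 0.13 (Dnah5). Without vehicle replicate 2 at 10 weeks, 1 row passed for exposure at 10 weeks and 1 for the difference, neither a cilium gene. Values below the lower quartile of an array, which include most dynein genes, have no shown signal over background.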
